A study of Mus musculus with 48 samples.

Results

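Epididymal white fat of male mice kept at room temperature was compared between control mice and mice labelled as lacking angiotensinogen (Agt) in hepatocytes. The 8 libraries were chosen from the 48 of the series by their titles, as those from this fat depot and this housing: 4 from hepAGT-/- mice (here KO, replicates 9, 10, 16 and 19) and 4 from hepAGT+/+ littermates (WT, replicates 12, 13, 15 and 18). Both groups were housed at 20 to 22 °C and ate a Western diet, with 21% milk fat and 0.2% cholesterol, over 12 weeks. The deletion is named for hepatocytes, so the fat kept its own Agt gene. The labels do not name the Cre driver and give no age. The other libraries came from brown fat, from liver and, for all 3 tissues, from mice of the same genotypes and diet at thermoneutrality (30 °C).

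Angiotensinogen is the precursor of angiotensin II, and the liver is its main source in blood, while adipocytes make it as well. White fat stores triglyceride, takes up glucose under insulin and secretes hormones such as leptin, whose level in blood follows fat mass. In obese mice this depot gains collagen around its fat cells and macrophages that take up lipid from dying adipocytes, and has lower levels of many genes of mitochondrial metabolism.

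The tissue label was checked first against its defining genes. The 20 mature adipocyte markers, among them Adipoq, Plin1 and Fabp4, were all tested and summed to between 53526 and 66238 CPM (the usual depth-scaled count of a library, here adjusted with edgeR's trimmed mean of M values) in KO and between 58737 and 68115 CPM in WT. WT replicate 18 stood apart. In it, 26 markers of the epididymis, the duct this fat lies against, summed to 1326 CPM, with Crisp1 at 741 CPM and Spink8 at 233 CPM. In the other 7 libraries the sum ran from 0.342 CPM in KO replicate 19 to 27.7 CPM in KO replicate 9, and from 11 to 24 of the 26 markers were at 0 counts, against 4 in WT replicate 18. Hepatocyte transcripts varied within both groups: Alb ranged from 74.0 to 2884 CPM in KO and from 30.7 to 998 CPM in WT. Skeletal muscle markers summed to 9.15 to 26.1 CPM in KO and 22.9 to 37.3 CPM in WT. Total counts were 30969560 to 33201819 in KO and 33787582 to 36667439 in WT, so depth was lower in every KO library. The part of these differences in the results was not tested, other than by leaving out each library.

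The deleted gene was examined in its own tissue. In liver at room temperature Agt lay between 155 and 220 CPM in the 4 KO libraries and between 297 and 472 CPM in the 4 WT libraries. The groups did not overlap (log2 fold change -1.13; exact two-sided permutation test, p = 0.0286, the smallest that 4 against 4 allows), but edgeR's fit over the 3 tissues did not call the change (SE 0.70, adjusted p 0.61). Agt reads thus remained in the KO livers, and as the labels do not name the deleted exons, reads from the rest of the gene cannot be told apart. In epididymal fat Agt was at 196, 164, 128 and 139 CPM in KO (replicates 9, 10, 16 and 19, the order used for KO below) and at 96.4, 81.1, 126 and 65.9 CPM in WT (replicates 12, 13, 15 and 18, the order used for WT). Every KO library there lay above every WT library, but by a narrow gap. The log2 fold change, KO minus WT, was 0.76 (SE 0.54), which did not pass the test (edgeR quasi-likelihood, adjusted p 0.531, range over the alternatives 0.0509 to 0.71).

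Of 18933 genes tested in this depot, edgeR called 821, or 4.34%, at a Benjamini-Hochberg adjusted p under 0.05. They divided into 228 higher in KO (1.2% of genes tested) and 593 lower (3.13%). These shares are the background for every count of list members that edgeR called in this comparison. Lower genes also changed more: their median log2 change was -0.93, against 0.60 for the higher genes and -0.0021 for all genes tested, and 262 of the lower and 49 of the higher genes changed at least 2-fold. DESeq2, with its own scaling, called 621 higher and 938 lower genes. Without WT replicate 18, edgeR called 287 of 19558 genes (1.47%), 79 higher and 208 lower, and 281 of these were among the 821. All 821 kept their sign without that library, and their median size of change moved from 0.82 to 0.75 on the log2 scale. Leaving out KO replicate 10 or 19, or WT replicate 13 or 15, also lowered the count by more than 1.5 times, to between 374 and 481. In bulk tissue, fewer cells of a type and less RNA per cell cannot be told apart, which holds for every result below.

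**Figure D1:**
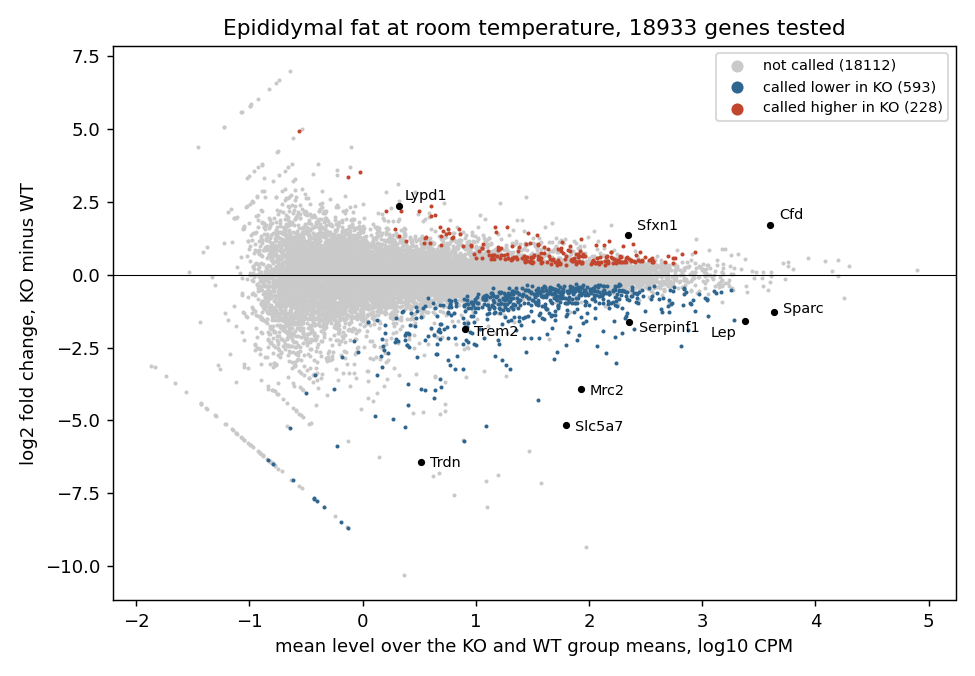
Log2 fold change KO minus WT (vertical axis) against mean level in log10 CPM (horizontal axis) for each gene tested, with 1 gene at 0 in all 8 libraries not drawn. Blue points are the 593 genes called lower in KO, red points the 228 called higher, grey points those not called, with 10 of the called genes in black beside their symbols; the blue points reach farther from 0 than the red.

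The 4 promoters below belong to Lep and Serpinf1, which fell, and Sfxn1 and Irs1, which rose. All are among the 5 genes with the smallest p in their direction and are described in detail later. Each is the 250 bases before the start of transcription in RefSeq on GRCm38.p6, 5′ to 3′ along the gene. Capitals mark matches on either strand to TATAA (the core of the TATA box), CCAAT (of NF-Y sites), GGGCGG (of Sp1 sites), AAGGTCA (of ERR receptor sites) or TTGCGCAA (of C/EBP sites).
Lep, chr6:29059971-29060220, plus strand: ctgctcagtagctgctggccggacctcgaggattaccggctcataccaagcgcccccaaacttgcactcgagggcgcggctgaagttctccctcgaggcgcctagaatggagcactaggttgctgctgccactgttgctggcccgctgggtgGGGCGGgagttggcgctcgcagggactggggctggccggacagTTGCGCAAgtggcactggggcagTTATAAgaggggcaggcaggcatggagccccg
Serpinf1, chr11:75422624-75422873, minus strand: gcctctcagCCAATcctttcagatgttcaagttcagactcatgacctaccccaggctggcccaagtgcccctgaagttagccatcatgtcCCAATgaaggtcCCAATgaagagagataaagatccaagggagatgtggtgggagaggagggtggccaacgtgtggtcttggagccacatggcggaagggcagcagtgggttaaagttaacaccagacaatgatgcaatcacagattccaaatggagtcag
Sfxn1, chr13:54071595-54071844, plus strand: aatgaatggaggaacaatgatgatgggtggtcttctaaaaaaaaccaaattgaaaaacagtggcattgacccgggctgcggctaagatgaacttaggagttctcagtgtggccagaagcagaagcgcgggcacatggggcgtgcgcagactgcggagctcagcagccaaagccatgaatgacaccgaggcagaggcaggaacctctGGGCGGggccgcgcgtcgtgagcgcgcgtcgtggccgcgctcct
Irs1, chr1:82291440-82291689, minus strand: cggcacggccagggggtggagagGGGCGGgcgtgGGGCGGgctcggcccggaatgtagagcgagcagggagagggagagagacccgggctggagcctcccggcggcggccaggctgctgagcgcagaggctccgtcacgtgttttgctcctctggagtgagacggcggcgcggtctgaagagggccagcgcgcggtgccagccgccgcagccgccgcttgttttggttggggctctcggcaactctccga
The Lep window held GGGCGG from base 98 to 93 before the start, TTGCGCAA from 55 to 48 and TATAA on both strands, in overlap, from 32 to 27. Serpinf1 held CCAAT at 3 places, Sfxn1 held GGGCGG once and Irs1 held it at 2 places. TTGCGCAA was in 0.185% of the 27025 genes with such a window and in 0.295% of the 12547 tested here. GGGCGG was in 58.6% of the genes tested, in 57.2% of those called higher and in 68.1% of those called lower. TATAA was in 16.2% of the genes tested, 12.1% of those called higher and 19.0% of those called lower. These matches describe the letters of the windows and were not tested as binding sites.

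Leptin RNA was lower in KO fat. Lep (ENSMUSG00000059201) was at 1119.7, 1359.7, 1223 and 1038 CPM in the KO libraries and at 3113, 3448, 3276 and 4339 CPM in the WT libraries. The highest KO library lay far below the lowest WT library, so the groups did not overlap. Lep fell by 1.58 on the log2 scale (SE 0.19, adjusted p 0.00101), a level 2.99-fold higher in WT, and was called under all 13 alternatives. Cfd, which encodes adipsin, a complement protease secreted by fat cells, went the other way. It was at 5802, 7670.5, 5124 and 5794 CPM in KO and at 2072, 1886, 2141 and 1296 CPM in WT, without overlap (log2 fold change 1.72, SE 0.42, adjusted p 0.0315). Its call was lost in 8 of the 13 alternatives, with an adjusted p of 0.105 without WT replicate 18, although the values did not overlap.

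Over the 19 adipokine genes tested, 2 rose and 3 fell, and the median log2 change was -0.48, against -0.0021 for all genes. Sfrp5, a secreted Wnt inhibitor, was at 62.4, 50.4, 28.3 and 12.6 CPM in KO and 177, 234, 509 and 324 CPM in WT (log2 fold change -3.02, SE 0.55, adjusted p 0.0103). Every KO library lay well below the WT libraries, though within each group the values spread widely. Nampt, an enzyme of NAD synthesis that fat also secretes, rose by 0.40 (adjusted p 0.0415, and 0.0624 without WT replicate 18). Adipoq, the adiponectin gene, was at 2599 to 4872 CPM in KO and 2752 to 4043 CPM in WT, groups that overlapped (log2 fold change 0.09, adjusted p 0.873). Retn, the resistin gene, was at 1859 to 3336 CPM in KO and 1206 to 1966 CPM in WT, also with overlap (log2 fold change 0.72, adjusted p 0.102). The fall in Lep thus stood beside adiponectin RNA whose groups overlapped.

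Serpinf1 (ENSMUSG00000000753) had the smallest p of all genes named here. It encodes pigment epithelium-derived factor, a secreted serpin that inhibits blood vessel growth and binds the lipase Pnpla2. Its levels were 121, 111, 117 and 100.4 CPM in KO and 302, 324, 383 and 363 CPM in WT. The KO values lay close together and far below WT, whose level was 3.05-fold higher (log2 fold change -1.61, SE 0.16, adjusted p 0.000225). Next by p among the genes that fell, beside Lep, were Trp53inp2, a factor in autophagy and transcription (log2 fold change -1.42, adjusted p 0.00101), Fuca2, a fucosidase (-1.01, adjusted p 0.00101), and Smtnl2, a smoothelin-like protein (-2.24, adjusted p 0.00115). For all of these the groups stood apart and the call held under the 13 alternatives.

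**Figure D2:**
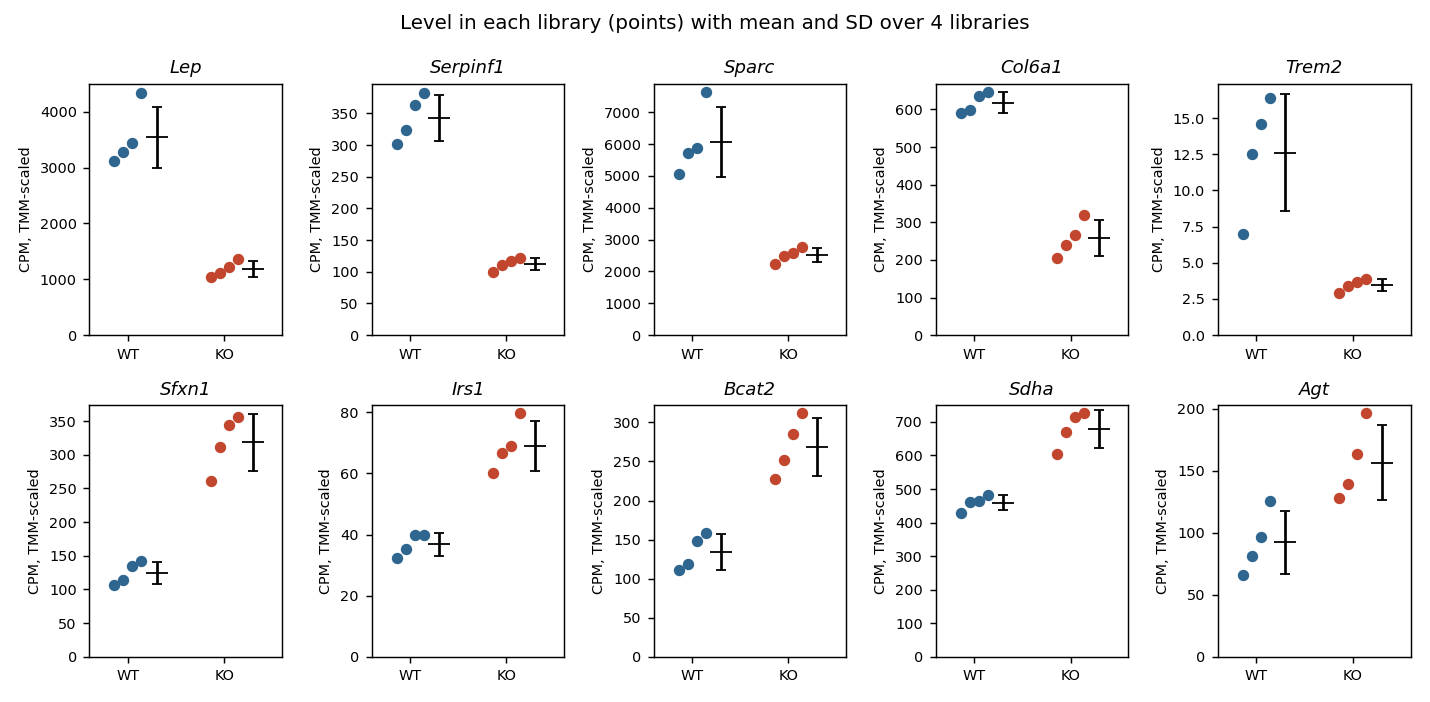
CPM in each of the 8 libraries for 10 genes, each panel from 0, with WT in blue, KO in red, the libraries of a group in order of value, and the mean and SD over 4 libraries as black bars. Lep, Serpinf1, Sparc, Col6a1 and Trem2 were lower in every KO library than in every WT library; Sfxn1, Irs1, Bcat2, Sdha and Agt were higher in every KO library, Agt by the narrowest gap and without passing the test.

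Genes of insulin response rose in part. Irs1, the insulin receptor substrate, was at 68.9, 60.1, 79.9 and 66.7 CPM in KO and at 39.9, 35.3, 39.8 and 32.3 CPM in WT. Every KO library lay above every WT library (log2 fold change 0.90, SE 0.13, adjusted p 0.00223), and the call held in all alternatives. Slc2a4, the insulin-responsive glucose transporter GLUT4, was at 210.1, 188, 182 and 216 CPM in KO and 163, 145, 138 and 98.1 CPM in WT (log2 fold change 0.55, SE 0.15, adjusted p 0.0423). Its groups did not overlap, but the call was lost in 7 alternatives (adjusted p 0.106 without WT replicate 18). These were the 2 that edgeR called among 19 tested genes of insulin and glucose handling, beside 1.2% called higher among all genes. None was called lower by edgeR, DESeq2 called 2 higher and 1 lower, and the list's median was 0.09. Nr3c1, the glucocorticoid receptor, was the 1 called among 16 steroid and nuclear receptors. It was at 234 to 267 CPM in KO and 151 to 189 CPM in WT (log2 fold change 0.56, SE 0.09, adjusted p 0.00358). Pparg, the receptor that directs fat cell differentiation, was at 262 to 342 CPM and 203 to 277 CPM, overlapping (log2 fold change 0.26, adjusted p 0.331).

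Genes of fat synthesis and breakdown changed singly. Of 15 lipogenic genes 1 was called, Acaca, the acetyl-CoA carboxylase of fatty acid synthesis. It was at 1083, 656, 607 and 931 CPM in KO and 607, 419.7, 468 and 489 CPM in WT, where KO replicate 16 lay only just above WT replicate 12 (log2 fold change 0.72, adjusted p 0.0407, lost in 6 of 13 alternatives). Fasn (0.45, adjusted p 0.348) and Scd1 (0.18, adjusted p 0.584) were not called and overlapped between groups. Among 18 genes of triglyceride synthesis and storage, Gpat4, which starts glycerolipid synthesis, rose by 0.56 (adjusted p 0.0115) and Mogat1, a monoacylglycerol acyltransferase, rose by 0.94 (adjusted p 0.0263). Mogat2, of the same family, fell by 1.33 (adjusted p 0.0255), from 11.7 to 21.5 CPM in WT to 4.89 to 8.49 CPM in KO. Both Mogat calls were lost without WT replicate 18 (adjusted p 0.0728 and 0.0855). In lipolysis, 3 of 18 genes fell, beside 3.13% called lower among all genes. They were Prkar2b, a regulatory subunit of protein kinase A, Adora1, the adenosine receptor that restrains lipolysis, and Npr3, the clearance receptor for natriuretic peptides. Their falls, 0.47, 0.60 and 0.60 on the log2 scale, all lost their call without WT replicate 18. Leaving out KO replicate 9, KO replicate 10, WT replicate 13 or WT replicate 15 also left none of the list called lower. The 8 libraries fitted alone gave 1 gene called higher and 0 lower. Fads1, a desaturase of polyunsaturated fatty acids, was among the genes with the largest rises, from 73.7 to 111 CPM in WT to 162 to 249.8 CPM in KO (log2 fold change 1.16, SE 0.20, adjusted p 0.00445). Of the 20 mature adipocyte markers only Slc2a4 was called, with a list median of 0.06.

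The listed genes of mitochondrial respiration moved one way. Of 25 genes of oxidative phosphorylation and the TCA cycle, all tested, 11 rose and none fell, beside 1.2% called higher among all genes. All 25 had a log2 change above 0, with a range of 0.01 to 0.61 and a median of 0.40. Sdha, the catalytic subunit of succinate dehydrogenase, was at 726, 671, 603 and 713 CPM in KO and 429, 466, 481 and 463 CPM in WT. No library overlapped (log2 fold change 0.56, SE 0.10, adjusted p 0.00619), and all 13 alternatives kept the call. Fh1, fumarase, was at 176, 182, 140.4 and 187 CPM against 118, 131, 114 and 127 CPM (log2 fold change 0.48, SE 0.09, adjusted p 0.00864). Subunits of complex I (Ndufs1, Ndufa9, Ndufv1), complex II (Sdhb) and complex III (Uqcrc2, Uqcrfs1) and the TCA enzyme Mdh2 rose by 0.40 to 0.61. WT replicate 15 was the lowest WT library for 19 of the 25 genes, and KO replicate 16 the lowest KO library for 24. KO replicate 16 also had the highest Alb of the 8 libraries, 2884 CPM, and the part of this in its low values was not tested. Without KO replicate 16 the count of called genes was 16. It was 2 without KO replicate 19, 3 without WT replicate 15, 5 without KO replicate 10 or WT replicate 18, 6 without WT replicate 13 and 4 with the 8 libraries fitted alone, all of them higher. The median without WT replicate 18 was 0.45. Ppargc1a, the coactivator of mitochondrial genes, was at 9.40, 13.2, 6.29 and 6.63 CPM in KO and 4.35, 3.28, 3.42 and 3.35 CPM in WT, every KO library above WT (log2 fold change 1.30, SE 0.31, adjusted p 0.023, and 0.0673 without WT replicate 18). Ucp1, the uncoupling protein of brown and beige fat, was at or below 0.391 CPM in KO and 0.500 to 2.29 CPM in WT, without overlap but not called (adjusted p 0.295).

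Breakdown of branched-chain amino acids showed the same direction. Of 21 genes, all tested, 9 rose, none fell, and 20 had a log2 change above 0 (median 0.45, and 0.42 without WT replicate 18). KO replicate 16 was the lowest KO library for 15 of the 21 and WT replicate 18 the lowest WT library for 13. Bcat2, the mitochondrial aminotransferase that takes the first step, was at 252, 285, 227 and 312 CPM in KO and 158, 148, 119 and 111 CPM in WT. KO replicate 16, the lowest KO library, still lay above WT replicate 12, the highest WT library (log2 fold change 1.01, SE 0.18, adjusted p 0.00619). Both Bckdha, a subunit of the dehydrogenase of the second step, and Bckdk, the kinase that inhibits it, rose (0.62, adjusted p 0.0268, and 0.56, adjusted p 0.0101). Farther along, Ivd of leucine breakdown rose by 0.77 (adjusted p 0.0202), Mccc1 by 0.63 (adjusted p 0.00721), and Pccb, Acadsb, Hsd17b10 and Aldh6a1 by 0.48 to 0.63. Groups did not overlap for 12 of the 21 genes, all higher in KO, against 3.98% of all genes tested. Without WT replicate 18, 4 genes of the list were called, and 4 were also called without KO replicate 19, 6 without KO replicate 10 and 13 or more only without KO replicate 16 or by DESeq2 (13 and 14), all of them higher. In fatty acid oxidation edgeR called 2 of 18 genes higher, Acadvl (0.46) and Etfb (0.69), and none lower, while DESeq2 called 3 higher and 1 lower. Of these 18 genes 14 had a log2 change above 0 and 4 below. Without WT replicate 18 neither Acadvl nor Etfb was called (adjusted p 0.0628 and 0.08).

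Sfxn1, a mitochondrial serine carrier, had one of the largest rises among the more abundant genes. It was at 344, 312, 261 and 356 CPM in KO and 142, 115, 135 and 107 CPM in WT, far from overlapping (log2 fold change 1.35, SE 0.19, adjusted p 0.00223). Gpd2, the mitochondrial glycerol-3-phosphate dehydrogenase, was at 107, 75.2, 63.9 and 70.2 CPM against 43.1, 35.7, 36.8 and 27.9 CPM (log2 fold change 1.14, SE 0.19, adjusted p 0.00402). Sqor, which oxidises sulfide in mitochondria, rose by 1.02 (adjusted p 0.0115), and Alad, an enzyme of haem synthesis, by 0.81 (adjusted p 0.00257). Other genes chosen for a large rise were Gsta4, a glutathione transferase that clears lipid aldehydes (1.38, adjusted p 0.00937), Tfpi, an inhibitor of the tissue factor pathway of clotting (1.06, adjusted p 0.00223), Nat8f1 (1.42), Vnn3 (1.08), Sept6 (1.08), Cited2 (1.01) and Car13 (0.93). In each of them all KO libraries lay above all WT libraries.

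**Figure D3:**
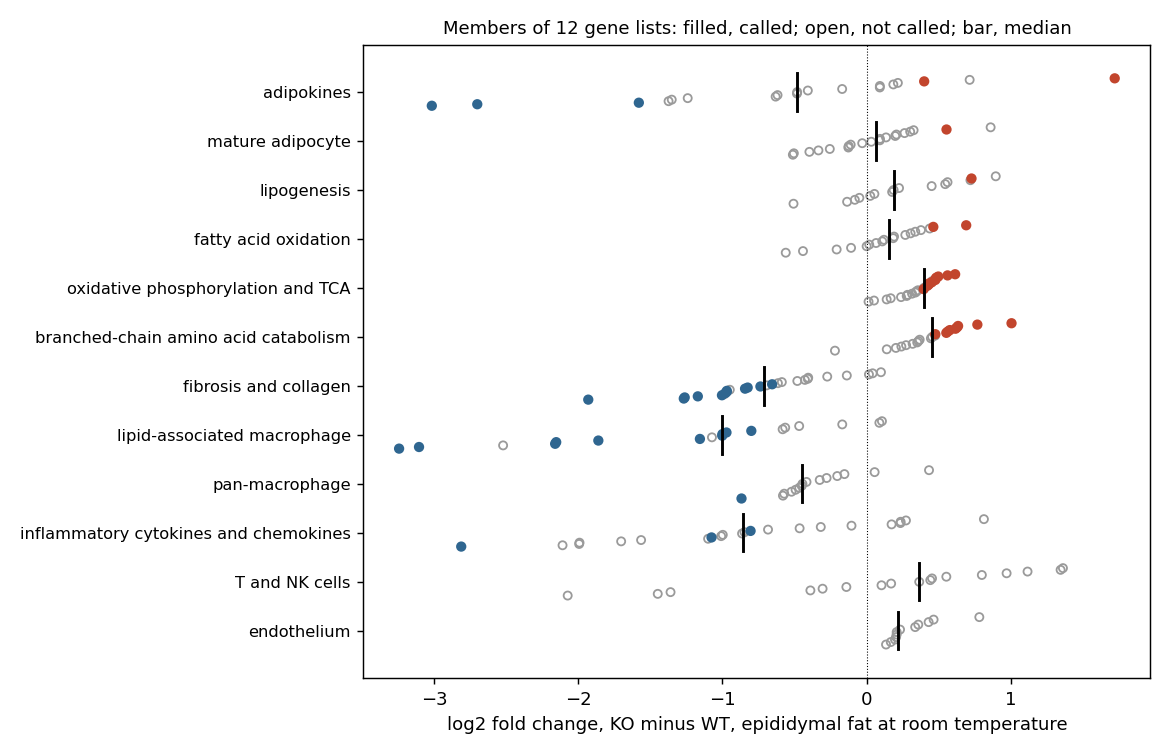
Log2 fold change KO minus WT (horizontal axis) of each tested member of 12 gene lists (rows), filled where called, open where not, with the list median as a black bar. The members of oxidative phosphorylation and branched-chain amino acid catabolism lie to the right of 0 apart from 1 gene of the latter, and the called members of fibrosis and collagen and of lipid-associated macrophages all lie to the left.

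Matrix genes were lower in KO fat. Of 26 genes of fibrosis and collagen, all tested, 12 fell and none rose, beside 3.13% called lower among all genes, and the median log2 change was -0.71. Summed over the list, the level was 7934.5 to 9108 CPM in KO and 13769 to 18043 CPM in WT. Every KO library lay below every WT library in this sum, as they did for 16 of the 26 single genes, against 6.89% of all genes tested. Sparc, a collagen-binding matrix protein, was at 2499, 2769, 2232 and 2579.8 CPM in KO and 5045, 5723, 5888 and 7626 CPM in WT. The groups were far apart (log2 fold change -1.27, SE 0.18, adjusted p 0.00192), also without WT replicate 18, its highest library (-1.11, adjusted p 0.0103). Col6a1, a chain of the collagen VI that surrounds fat cells, was at 239, 206, 265 and 321 CPM in KO and 592, 647, 637 and 598 CPM in WT (log2 fold change -1.26, SE 0.22, adjusted p 0.00474). Its partner chains Col6a2 (-1.17, adjusted p 0.00937) and Col6a3 (-0.98, adjusted p 0.0114) fell too. Both basement membrane chains fell, Col4a1 by 0.84 (adjusted p 0.00525) and Col4a2 by 0.97 (adjusted p 0.0107), and so did the fibril chains Col5a2 (-1.0, adjusted p 0.00227) and Col5a1 (-0.74, adjusted p 0.0236). Acta2, smooth muscle actin and a marker of myofibroblasts and vessel walls, was at 77.6, 63.4, 46.9 and 31.2 CPM in KO and 238, 202, 163 and 232 CPM in WT (log2 fold change -1.93, adjusted p 0.0167). Bgn, Postn and the collagen chaperone Serpinh1 fell by 0.83, 0.97 and 0.66. Col1a1, the main chain of fibrillar collagen, was at 153, 60.6, 145 and 125 CPM in KO and 196, 232, 272 and 259 CPM in WT. Those groups did not overlap, but the change of -0.99 did not pass the test (adjusted p 0.0706). Without WT replicate 18, 6 of the list were called, all lower, with a median of -0.70. Among 15 progenitor and fibroblast markers edgeR and DESeq2 called none (3 at an unadjusted p under 0.05, median -0.08), and among 12 endothelial markers neither (1 at an unadjusted p under 0.05, median 0.22).

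Among 17 genes of matrix remodelling, 3 fell. Adam12, a metalloprotease, was at 16.9, 13.8, 13.0 and 19.3 CPM in KO and 30.5, 43.2, 27.6 and 66.0 CPM in WT (log2 fold change -1.41, SE 0.23, adjusted p 0.004). Adamts2, which trims procollagen, fell by 0.63 (adjusted p 0.0177, and 0.0938 without WT replicate 18), and Mmp12, a macrophage elastase, by 3.24. Mrc2, an endocytic receptor for collagen, had one of the largest falls in the comparison. It was at 12.6, 6.30, 10.8 and 11.7 CPM in KO and 97.9, 122, 176 and 239.8 CPM in WT, so that the lowest WT library stood far above the highest KO library (log2 fold change -3.94, SE 0.55, adjusted p 0.00357).

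Most macrophage genes had lower levels in KO fat, and most of those called were of lipid-associated macrophages. Of 18 genes of lipid-associated macrophages, the cells that gather around dying fat cells in obesity, 10 were called lower and none higher. The share called lower among all genes was 3.13%. Of the 18, 16 had a log2 change below 0 and 2 above (median -1.0). Their summed level overlapped between groups, at 5221 to 6511 CPM in KO and 6233 to 7241 CPM in WT. Of 15 pan-macrophage genes 1 fell, Cd68 (-0.87, adjusted p 0.0485, called in only 4 of the 13 alternatives), while 9 were at an unadjusted p under 0.05 and 13 had a log2 change below 0 (median -0.45). No test compared the lists. Of 13 genes of resident macrophages none was called by edgeR (5 at an unadjusted p under 0.05, 2 called by DESeq2, 11 below 0, median -0.33). Trem2, the lipid receptor that defines the lipid-associated state, was at 2.90, 3.88, 3.69 and 3.42 CPM in KO and 6.99, 14.6, 12.5 and 16.4 CPM in WT. The KO values were nearly level, while WT replicate 12 lay between them and the other WT libraries (log2 fold change -1.86, SE 0.39, adjusted p 0.0142). Itgax, the integrin CD11c, was at 3.97, 3.85, 6.51 and 2.80 CPM against 12.8, 18.7, 18.7 and 26.6 CPM (log2 fold change -2.16, SE 0.43, adjusted p 0.0115). Ctsl, a lysosomal protease, was at 530.4, 636, 435 and 509.7 CPM against 860.1, 1006, 895 and 1467 CPM (log2 fold change -1.0, SE 0.17, adjusted p 0.00467). Also lower were Mmp12, Atp6v0d2, Gpnmb, Msr1, Ctss, Ctsk and Nceh1, by 0.80 to 3.24. WT replicate 12 was the lowest WT library for 13 of the 18 genes. Without WT replicate 18 only Itgax (adjusted p 0.0484) and Ctsl (0.0213) were called, Trem2 had an adjusted p of 0.0587, and the list median was -0.82. Leaving out any 1 of the other libraries gave between 3 and 6 calls, except 11 without WT replicate 12. With no filter on low counts 5 were called and by DESeq2 13, all lower. Adgre1, which encodes the pan-macrophage surface protein F4/80, was at 25.2 to 33.1 CPM in KO and 24.4 to 55.8 CPM in WT, overlapping, and was not called (log2 fold change -0.57, adjusted p 0.217).

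Of 22 inflammatory cytokine and chemokine genes, 3 fell, among them Il1rn, the interleukin 1 receptor antagonist (-2.81, adjusted p 0.00809), and Ccl7, a monocyte attractant (-1.08, adjusted p 0.0373). Il1rn was at 1.11, 0.988, 0.615 and 0.273 CPM in KO and 2.58, 3.58, 7.51 and 7.37 CPM in WT, without overlap, and alone of the 3 was called without WT replicate 18 (adjusted p 0.0295). One of 12 genes of MHC class II presentation fell, the regulator Ciita (-0.92, adjusted p 0.0374, and 0.134 without WT replicate 18). Lists for T and NK cells (17 tested), B and plasma cells (12), mast cells and granulocytes (10) and the interferon response (18) held no call by edgeR, with 4, 1, 2 and 3 genes at an unadjusted p under 0.05 and 2, 1, 1 and 1 called by DESeq2.

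The largest falls were in genes of low level. Trdn, triadin of the calcium release complex in striated muscle, was at 0.0976, 0.204, 0 and 0 CPM in KO and 1.85, 3.55, 10.3 and 10.4 CPM in WT (log2 fold change -6.41, SE 1.30, adjusted p 0.0167). Casq1, the calcium store protein calsequestrin, was at 0 to 0.559 CPM in KO and 3.63 to 6.14 CPM in WT (log2 fold change -3.74, adjusted p 0.0115), and Mstn, the muscle growth inhibitor myostatin, at 0 to 0.272 CPM and 1.32 to 3.96 CPM (-4.86, adjusted p 0.0115). In these 3 genes the KO libraries held very few counts, so the size of the change is uncertain. Of 10 tested skeletal muscle markers edgeR and DESeq2 called none (1 at an unadjusted p under 0.05), Ckm was at or below 0.653 CPM in every library, and Acta1 was at 2.73 to 21.3 CPM in KO and 18.3 to 31.4 CPM in WT. Slc5a7, the choline transporter, was at 6.38, 3.88, 1.62 and 1.78 CPM in KO and 59.5, 79.0 and 102 CPM in WT replicates 12, 13 and 15 (log2 fold change -5.17, SE 0.92, adjusted p 0.0101). Its highest value, more than 2-fold above these, was that of WT replicate 18, and without that library the change was -4.54 (adjusted p 0.031). Lipf, gastric lipase, was at 0.112 to 0.683 CPM in KO and 5.27 to 34.6 CPM in WT (-5.69, adjusted p 0.00809). The same rule named Itgad, an integrin of macrophages (-5.23), Fam83d (-4.47), Ubd, a ubiquitin-like protein induced by cytokines (-4.30), Lpar3, a receptor for lysophosphatidic acid (-3.58), Sez6l (-3.23) and Nup210, a nuclear pore protein (-3.10). Itgad showed the widest spread, from 0.299 CPM in WT replicate 12 to 10.4 CPM in WT replicate 18, against 0.0683 to 0.195 CPM in KO.

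Calls lost without WT replicate 18 were named by the same sizes. Among genes called with all libraries but not without it, the largest rises included those of Lypd1 (2.38), Fn3k (2.19), Gbp11 (2.03) and Cfd (1.72), with adjusted p from 0.0236 to 0.0374 with all libraries and from 0.0698 to 0.115 without that one. The largest falls were those of Tph2 (-5.20), Pkp1 (-4.96), Cdkl4 (-4.24), Pex5l (-3.95) and Car12 (-3.92), with adjusted p from 0.0167 to 0.0367 and from 0.0535 to 0.105. Pkp1, a protein of cell junctions in epithelia, was at 2.01, 2.36, 2.28 and 7.72 CPM in WT and at or below 0.390 CPM in KO, so that all WT libraries lay above KO even though WT replicate 18 was highest. None of the 10 tested epididymis markers was called by edgeR or DESeq2 (3 at an unadjusted p under 0.05). Their median change was -3.99 with all libraries and 0.46 without WT replicate 18.

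Sterol genes were mixed. Fdft1, squalene synthase, rose from 50.9 to 73.7 CPM in WT to 91.1 to 125 CPM in KO (log2 fold change 0.81, adjusted p 0.00577), while Hmgcs1, an earlier enzyme of the same path, fell from 650.1 to 804 CPM to 205 to 451 CPM (log2 fold change -0.96, adjusted p 0.0175, and 0.0672 without WT replicate 18), and Soat1, which esterifies cholesterol, fell by 0.87 (adjusted p 0.0426, and 0.159 without that library). These were the 3 called of 20. Of the renin-angiotensin list, 13 of 18 genes were tested and 1 fell, Ctsd, a lysosomal protease that can cleave angiotensinogen (-0.80, adjusted p 0.0219, and 0.102 without WT replicate 18). Ren1, Agtr2 and Mas1 were at or below 0.195 CPM in every library and untested. Of 15 tested thermogenic genes edgeR called 1 higher, Ppargc1a, and 1 lower, Kcnk3, a potassium channel of fat cells. In that list 7 genes had a log2 change above 0 and 8 below (median -0.10). Kcnk3 was at 15.1, 8.96, 12.8 and 15.3 CPM in KO and 35.8, 30.0, 44.2 and 31.8 CPM in WT, a clear separation (log2 fold change -1.44, SE 0.22, adjusted p 0.00223). Cdk1, the mitotic kinase, was the only cell cycle gene of 17 called (-2.03, adjusted p 0.0114, and 0.0538 without WT replicate 18). Hp, haptoglobin, which liver and fat both make, was the 1 called hepatocyte marker of 13 (-1.54, adjusted p 0.0268, and 0.101 without WT replicate 18), while the other 12 had log2 changes above 0 and Alb overlapped between groups.

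The same genotypes were compared in this depot at thermoneutrality, in 8 other libraries. There edgeR called 111 genes (0.586%), 33 higher and 78 lower. Of these, 47 were among the 821 called at room temperature, all 47 in the same direction, which is 42.3% of the thermoneutral and 5.72% of the room temperature calls. Of the 821 genes, 756 (92.1%) had the same sign at thermoneutrality, against 59.8% of all genes tested, and 770 changed by less. The genes called higher at room temperature had a median of 0.19 at thermoneutrality and those called lower -0.47. All were chosen by their test at room temperature, which by itself favours smaller changes in other libraries. These sizes therefore do not compare the temperatures. The difference between the temperatures, tested directly, was called for no gene (0 of 18933, 0.0%; 1439 at an unadjusted p under 0.05, lowest adjusted p 0.494), and DESeq2 called 10. Without KO replicate 9, edgeR called 1 gene, Arrb1, a regulator of receptor signalling (difference -1.07, adjusted p 0.0185). Arrb1 was also among the 10 that DESeq2 called with all libraries (difference -0.91, adjusted p 0.00193), and was named here after its values were seen.

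Lep at thermoneutrality was at 2353 ± 721 CPM (SD, n = 4) in KO and 3827 ± 253 CPM in WT, a log2 change of -0.70 (adjusted p 0.0847) beside the -1.58 at room temperature (difference -0.88, adjusted p 0.553). Serpinf1 was called at both temperatures, at 161 ± 47.7 CPM and 381 ± 31.8 CPM at thermoneutrality (-1.24, adjusted p 0.00877), as were Sfxn1 (0.94, adjusted p 0.0402) and Sparc (-0.88, adjusted p 0.0401). The median of oxidative phosphorylation and the TCA cycle was 0.03 at thermoneutrality with no call (0 at an unadjusted p under 0.05, 0 by DESeq2), against 0.40 at room temperature. That of branched-chain amino acid catabolism was 0.19 with no call by edgeR (7 at an unadjusted p under 0.05, 2 by DESeq2), against 0.45. Fibrosis and collagen had a median of -0.41 with 4 genes lower, and lipid-associated macrophages one of -1.11 with 4 genes lower, against -0.71 and -1.0. Pan-macrophage genes had a median of -0.75 with 2 genes lower, against -0.45. For the 18 lipid-associated and 15 pan-macrophage genes, 15 and 13 were at an unadjusted p under 0.05, and DESeq2 called 13 and 12. Resident macrophage genes had a median of -0.01 with no call by edgeR and 1 by DESeq2, against -0.33. As no gene passed edgeR's test of the difference with all libraries, these medians are set side by side as a description.

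**Figure D4:**
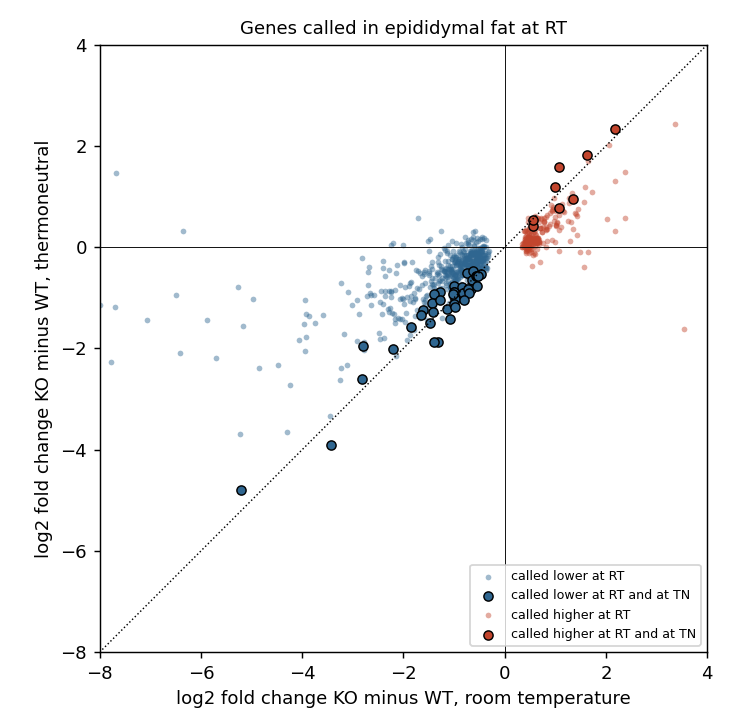
Log2 fold change KO minus WT at thermoneutrality (vertical axis) against that at room temperature (horizontal axis) for the genes called at room temperature, lower in blue and higher in red, with the 47 called at both temperatures outlined; the dotted line is equality and 3 genes lie outside the axes. Most points lie in the quadrants of equal sign and nearer to 0 on the vertical axis. The genes were chosen by their test at room temperature, which favours smaller values on the vertical axis.

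Brown fat and liver of the same housing gave a test of where epididymal fat differed from other tissues. The genotype difference in epididymal fat differed from that in brown fat for 370 of 19899 genes (1.86%), and from that in liver for 42 (0.211%). With the replicate number as a block these counts were 63 and 5. The labels do not say whether libraries of different tissues with the same number came from 1 mouse. Among the 821 genes, 813 were tested in this fit, 189 differed from brown fat and 30 from liver. The 821 were chosen by a test on the same epididymal libraries, which favours a difference. Sfxn1 differed from both: its change was 1.69 above that in brown fat (adjusted p 6.48e-05), where it was -0.35, and 1.45 above that in liver (adjusted p 0.00061). Mrc2 differed by -4.16 from brown fat (adjusted p 0.000446) and by -4.66 from liver (adjusted p 0.00061), and Serpinf1 by -1.22 (adjusted p 0.00845) and -1.77 (adjusted p 0.000685). With the replicate block Sfxn1 and Mrc2 were called against both tissues, and Serpinf1 against liver (adjusted p 0.0462) but not against brown fat (adjusted p 0.0574). For Lep the difference was 0.58 against brown fat (adjusted p 0.811), where its own change was -2.17 (adjusted p 0.0602), so a difference between the depots was not shown.

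The lists of oxidative phosphorylation and of branched-chain amino acid catabolism had medians of opposite sign in the 2 fat depots. In the fit over 3 tissues, oxidative phosphorylation and the TCA cycle had a median log2 change of 0.38 in epididymal fat, -0.28 in brown fat and 0.0021 in liver. None of its 25 genes was above 0 in brown fat, also with DESeq2's scaling, and 10 differed between the depots by the test. Branched-chain amino acid catabolism had medians of 0.44, -0.31 and -0.07, and 15 of its 21 genes differed between the depots. Fibrosis and collagen had medians of -0.73, 0.19 and -0.37, and 8 of 26 genes differed from brown fat. With the replicate block 1 gene of each of these lists differed from brown fat (16, 18 and 13 at an unadjusted p under 0.05). Against liver, edgeR called 1, 0 and 0 genes of these lists different (13, 13 and 9 at an unadjusted p under 0.05, and 1, 4 and 2 by DESeq2). The macrophage lists had medians below 0 in all 3 tissues. Those of lipid-associated macrophages were -1.02, -0.38 and -0.27, with 2 of 18 genes above 0 in brown fat. Pan-macrophage genes had -0.46, -0.66 and -0.35, and resident macrophage genes -0.33, -1.02 and -0.11. Of these lists 1, 0 and 0 genes differed between the depots by the test (6, 3 and 3 at an unadjusted p under 0.05). Medians over all genes tested in this fit were -0.0040, 0.0087 and 0.0040. In brown fat 10 of 10 tested skeletal muscle markers (median 2.6) and 11 of 12 endothelial markers (median 1.15) also had a log2 change above 0. In epididymal fat all 12 endothelial markers did (median 0.22, and 0.11 without WT replicate 18). WT replicate 18 was the lowest WT library for all 12. The part of these markers in the difference between depots was not tested.

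**Figure D5:**
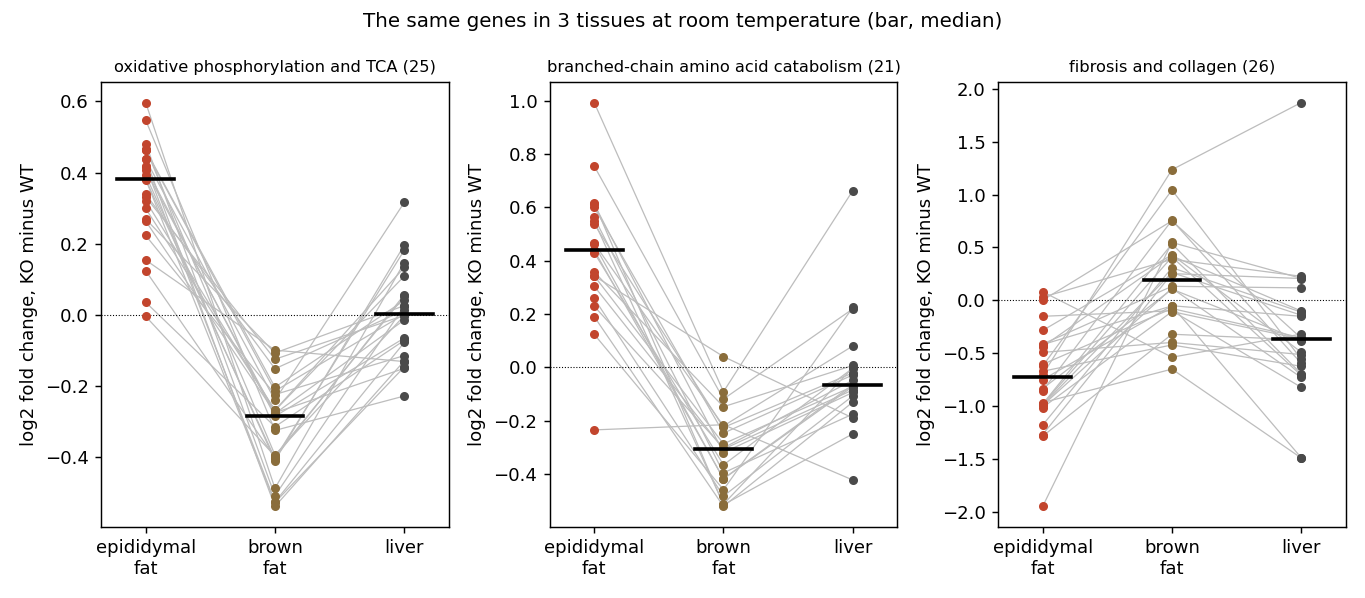
Log2 fold change KO minus WT (vertical axis) of each gene of 3 lists in epididymal fat, brown fat and liver at room temperature, from the fit over 24 libraries, with lines joining the values of 1 gene and bars at the medians. Genes of oxidative phosphorylation and branched-chain catabolism lie mostly above 0 in epididymal fat and below 0 in brown fat. Matrix genes lie mostly below 0 in epididymal fat.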

How the data were processed

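RNA from the 3 tissues was sequenced as paired-end reads on a NovaSeq, per the labels' protocols. The submitters' processing notes name fastp, STAR 2.6.1d, featureCounts 1.5.0-p3 and the build GRCm38 (mm10). The annotation release and strand setting are not given in the sources used here, so no gene coordinates are given for the counts, and a gene cannot be told apart from an antisense partner. The values deposited are raw read counts per gene for 56748 identifiers. A reference table of gene names paired 91.8% of them with a symbol.

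Groups came from the sample titles, which number the libraries as biological replicates. The fit used edgeR 4.0.16 (R 4.3.3, limma 3.58.1) with trimmed mean of M values scaling, a minimum count of 10 (filterByExpr), a robust quasi-likelihood test and Benjamini-Hochberg adjustment over all genes tested, called under 0.05. The 16 epididymal libraries gave the genotype differences and the 24 room temperature libraries the differences between tissues. Log2 changes are KO minus WT unless another difference is named. Scripts were tested on simulated data. Alternatives were DESeq2 1.42.0, its size factors in edgeR (RLE), no filter, a filter of 1 CPM in 4 libraries, the 8 libraries alone, each library left out, and the replicate block between tissues. List counts under these, block values of single genes, and readings without WT replicate 18 were chosen after seeing the data.

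The genes and 33 lists were chosen with earlier results of these data known. Named were up to 12 genes a direction with the largest change among those called also without WT replicate 18, at a mean of at least 1 CPM without overlap. Also named were the 5 smallest p a direction, the 5 largest changes a direction lost without that library, 12 fixed genes, and called list members. Promoters are RefSeq's. Some genes are not reported here, though the counts over lists include them.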

Additional observations from a re-analysis of the deposited data

Results flagged for a closer look

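Single libraries stood far from the other 3 of their group in 9 of 116 sets of 4 values examined, beside a nominal rate of about 1 in 20. The sets include genes chosen from these same libraries, so that rate is no measure of chance here. The summed epididymis markers were at 1326 CPM in WT replicate 18, where the other WT libraries reached 15.3 CPM, and at 27.7 CPM in KO replicate 9, where the other KO libraries reached 1.68 CPM. Pkp1 was high in the same libraries, at 7.72 CPM in WT replicate 18 (others up to 2.36 CPM) and 0.390 CPM in KO replicate 9 (others up to 0.0559 CPM). Pex5l was high in KO replicate 9, at 0.846 CPM against at most 0.447 CPM. KO replicate 19 was high for Lipf, at 0.683 CPM against at most 0.204 CPM, and for Sept6, at 21.1 CPM against at most 14.5 CPM. It was low for Cdkl4, at 0.0683 CPM against at least 0.521 CPM. Alad was low in KO replicate 16, at 71.0 CPM against at least 88.8 CPM, and still above every WT library.

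For 14 of the named genes the genotype difference in epididymal fat differed from that in another tissue at room temperature by edgeR's test of the difference. Over all genes tested, 1.86% differed from brown fat and 0.211% from liver. Many of the named genes were chosen by their change in these same epididymal libraries, which favours a difference. Their number is thus not read as a result. Against brown fat, those higher in epididymal fat were Sfxn1 (1.69, adjusted p 6.48e-05), Sqor (1.46, adjusted p 0.000382), Gpd2 (1.72, adjusted p 0.00103), Gsta4 (1.99, adjusted p 0.0078), Bcat2 (1.08, adjusted p 0.0198) and Fn3k (2.25, adjusted p 0.031). In brown fat itself these had changes of -0.63 to -0.08. Those lower in epididymal fat than in brown fat were Mrc2 (-4.16, adjusted p 0.000446), Serpinf1 (-1.22, adjusted p 0.00845), Trp53inp2 (-1.11, adjusted p 0.0127), Nup210 (-2.70, adjusted p 0.0146), Pex5l (-5.69, adjusted p 0.0221), Smtnl2 (-2.30, adjusted p 0.0352) and Casq1 (-7.71, adjusted p 0.0456). Casq1 rose by a fitted 3.98 in brown fat, where 10 of 10 tested skeletal muscle markers also had a change above 0, with a median of 2.6, and the part of this in the difference was not tested. Against liver the difference passed for Sfxn1 (1.45, adjusted p 0.00061), Gpd2 (1.54, adjusted p 0.00899), Alad (0.78, adjusted p 0.0301), Mrc2 (-4.66, adjusted p 0.00061), Serpinf1 (-1.77, adjusted p 0.000685) and Nup210 (-3.09, adjusted p 0.0138). With the replicate block the difference from brown fat passed for Sfxn1 and Mrc2 (adjusted p 0.0199 each), Sqor (0.034) and Gpd2 (0.0359), and that from liver for Sfxn1, Mrc2 and Serpinf1 (0.0462 each), and for no other of these genes.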

How the results depend on the processing

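The count of 821 genes became 1559 with DESeq2 (39.8% of them higher, against 27.8%), and ran from 287 without WT replicate 18 to 830 without WT replicate 12. RLE scaling gave 816 (280 higher), no filter 652, the 1 CPM filter 959 (377 higher) and the 8 libraries alone 595, and without KO replicate 16 it was 824 (363 higher). For the difference between temperatures, DESeq2 called 10, and leaving out libraries gave 0 to 1. For epididymal against brown fat, DESeq2 called 1029 in place of 370, and leaving out libraries gave 163 (KO replicate 10) to 522 (KO replicate 16). For epididymal fat against liver, DESeq2 called 323 in place of 42, and leaving out libraries gave 18 (WT replicate 18) to 44 (WT replicate 12). With the replicate block these counts were 63 and 5. Deviations from the group mean had correlations from -0.285 to 0.135 between same-numbered libraries of different tissues. Between libraries of different numbers, within a genotype, these ran from -0.219 to 0.265. Such values cannot show whether libraries share a mouse, and the labels do not say. The main fit did not treat same-numbered libraries as pairs. KO and WT epididymal libraries share no replicate number. The cause of these changes was not tested. Of 675 values for 52 named genes under the alternatives, 602 kept their direction and side of the threshold, 69 lost the call, 3 gained it and 1 changed sign: Adipoq, not called, whose 0.09 ranged from -0.067 (without KO replicate 10) to 0.24 (without KO replicate 16). Of 43 named genes that were called, 29 were called in every alternative, and 231 of the 821 were. With 4 libraries a group, genes near 1 CPM have folds with wide errors.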

Other observations

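Ccl21a, a chemokine of lymph nodes and lymphatic vessels that has near-identical copies, was at 25.6 to 45.8 CPM in KO and 1.11 to 19.4 CPM in WT, without overlap but not called. Of 6 tested lymph node markers edgeR and DESeq2 called none (0 at an unadjusted p under 0.05), with 3 above and 3 below 0. Markers of mesothelium, the cell layer on the depot's surface, had a median log2 change of -0.53 over 12 genes with no call by either tool (0 at an unadjusted p under 0.05). Testis germ cell markers (12 tested) gave no call by either tool (0 at an unadjusted p under 0.05), with Prm1 at 0 to 4.70 CPM in KO and 0.167 to 5.46 CPM in WT.

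Of the 593 genes called lower, 9 were at 0 counts in all 4 KO libraries, so their fitted changes depend on the prior count and are no bound.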
